A study of Arabidopsis thaliana with 6 samples.

Results

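The jasmonate synthesis genes described here are 10 Arabidopsis thaliana genes taken by locus identifier from the deposited count files, which list 33341 genes: DAD1, LOX2, LOX3, LOX4, LOX6, AOS, AOC1, AOC2, OPR3 and JAR1. The rule names them by their place in the pathway and uses no measured value, although they were chosen with earlier results of these data known. RNA was sequenced from nuclei sorted by fluorescence (FANS RNA-seq) from inflorescences of Ler plants carrying pAP1:AP1-GR in the ap1-1 cal-1 background, in which flowers start together once dexamethasone (DEX) is applied. All plants received 2 µM DEX daily on the main inflorescence and were collected at day 4, when flowers are at stage 5, so the comparison is between 2 domains of flowers treated alike. In 3 libraries (X13, X16 and X74) the nuclei were marked by pAP3:NTF, a green fluorescent protein held at the nuclear envelope and driven by the AP3 promoter. In the other 3 (X14, X71 and X26) the same protein was driven by the second intron of AG joined to a minimal 35S promoter. The sort therefore follows the activity of these regulatory sequences, shown in the study for one representative line of each. AP3 acts in the primordia of petals and stamens and AG in those of stamens and carpels, so stamen primordia belong to both domains.

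Jasmonate is a lipid hormone. A lipase such as DAD1 frees linolenic acid in the plastid, 13-lipoxygenases (LOX2, LOX3, LOX4 and LOX6) oxidize it, allene oxide synthase (AOS) and allene oxide cyclases (AOC1 and AOC2) close the ring, OPR3 reduces the product in the peroxisome, and JAR1 couples the finished acid to isoleucine, which gives the form that the receptor COI1 perceives. In flowers the hormone is known for driving filament elongation, pollen maturation and anther opening late in stamen development, and mutants of DAD1, AOS and OPR3 are male sterile. In older stamens AG is known to activate DAD1, the auxin response factors ARF6 and ARF8 promote jasmonate production in flowers, and in leaves TCP4 activates LOX2.

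The libraries held 28808948 to 42089156 counts, of which organelle genes took 2.39% to 4.56%. X74 and X71 had more nuclear genes with a read (26453 and 26225) than the other 4 libraries (22668 to 23174), and they are also the 2 libraries that are absent from the authors' table of normalized values. Their labels differ, X74 being AP3 and X71 AG. As a check of the labels, AP3 itself was at 126, 207 and 239 CPM (counts per 1000000 counts, with library totals scaled by TMM factors) in the libraries labelled AP3, against 58.1, 41.4 and 12.2 in those labelled AG (adjusted p = 0.0216, edgeR). AG went against the labels, at 41.5, 75.4 and 94.3 CPM in the libraries labelled AP3 against 38.4, 41.2 and 14.2, a difference that did not pass the test (adjusted p = 0.141, edgeR). Library values below are given in the order X13, X16 and X74 for AP3, then X14, X71 and X26 for AG. The labels do not say whether the libraries came from separate plants, so the tests measure the spread between these libraries only.

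The DNA just upstream of the genes was searched for short sites of the regulators named above: the class II TCP site GGACCA, the G-box CACGTG bound by MYC factors, the auxin response element TGTCTC, and the CArG box of MADS factors such as AP3 and AG, each on both strands. No match of one site overlapped a match of another in these genes. Sequences are the 250 bases before the annotated gene start in the RefSeq TAIR10.1 genome of the Columbia accession, whereas the plants were Ler. The TCP site stood upstream of 4 of the 10 genes, DAD1, LOX2, AOC1 and JAR1, and of 5.89% of 27431 protein-coding genes. LOX2 and JAR1 had 2 copies each. The G-box stood upstream of AOS alone, ending 1 base before its start, and of 6.49% of all genes. The auxin response element was found only upstream of AOC2 (10.9% of all genes), and no CArG box was found in these windows (2.52% of all genes). The 5 sequences with a TCP site or a G-box are shown 5′ to 3′ on the strand of the gene, the last base adjoining the start, because the TCP genes and AOS return below. Capitals mark the TCP site in either orientation (GGACCA or TGGTCC) and, for AOS, the G-box. Their positions are chr2:18478124-18478373 for DAD1, chr3:16524995-16525244 for LOX2, chr3:9403529-9403778 for AOC1, chr2:19033336-19033585 for JAR1, all on the plus strand, and chr5:17099596-17099845 on the minus strand for AOS.
DAD1: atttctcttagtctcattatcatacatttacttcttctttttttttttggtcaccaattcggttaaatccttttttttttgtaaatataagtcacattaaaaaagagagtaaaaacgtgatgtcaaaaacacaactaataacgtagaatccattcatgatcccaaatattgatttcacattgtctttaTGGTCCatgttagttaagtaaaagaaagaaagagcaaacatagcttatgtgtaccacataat
LOX2: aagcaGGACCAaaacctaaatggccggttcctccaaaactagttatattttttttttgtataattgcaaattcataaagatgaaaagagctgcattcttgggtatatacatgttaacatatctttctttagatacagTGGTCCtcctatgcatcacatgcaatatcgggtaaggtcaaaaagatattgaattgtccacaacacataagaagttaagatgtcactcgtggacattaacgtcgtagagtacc
AOC1: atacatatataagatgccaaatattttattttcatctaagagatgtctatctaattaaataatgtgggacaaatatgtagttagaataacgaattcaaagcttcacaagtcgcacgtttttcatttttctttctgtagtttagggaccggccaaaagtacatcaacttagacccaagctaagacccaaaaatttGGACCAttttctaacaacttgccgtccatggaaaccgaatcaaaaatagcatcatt
JAR1: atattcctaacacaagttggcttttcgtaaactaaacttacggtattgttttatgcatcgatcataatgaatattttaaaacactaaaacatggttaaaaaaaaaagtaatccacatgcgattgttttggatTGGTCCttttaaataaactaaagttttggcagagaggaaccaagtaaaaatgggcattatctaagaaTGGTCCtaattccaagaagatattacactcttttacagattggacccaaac
AOS: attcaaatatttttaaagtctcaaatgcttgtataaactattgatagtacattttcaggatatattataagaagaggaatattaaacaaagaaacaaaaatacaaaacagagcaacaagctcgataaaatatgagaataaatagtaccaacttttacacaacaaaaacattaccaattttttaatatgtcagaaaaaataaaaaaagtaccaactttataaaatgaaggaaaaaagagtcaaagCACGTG
A match says only that these letters are present in the window.

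Between the domains, none of the jasmonate synthesis genes passed the test. Of the 10 genes, 9 had more than 10 reads in at least 2 libraries and could be tested, and 0 of the 9 were called by edgeR at an adjusted p under 0.05, against 7.76% of the 20013 genes tested (1.36% higher and 6.4% lower in the libraries labelled AP3). At an unadjusted p under 0.05 there were 2, AOS and LOX4, against 19.7% of all genes, and DESeq2 called both of these as lower in the libraries labelled AP3, against 12.2% of all genes. The values of the 2 groups did not overlap for 3 of the 9 genes, AOS, LOX4 and JAR1, against 25.9% of all genes, and all 3 were lower in the libraries labelled AP3 (15.0% of all genes). The median log2 fold change (AP3 over AG) was 0.07 over the 9 genes and 0.03 over all genes tested. In bulk nuclei such as these, fewer nuclei of a type and less RNA per nucleus cannot be told apart.

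**Figure D1:**
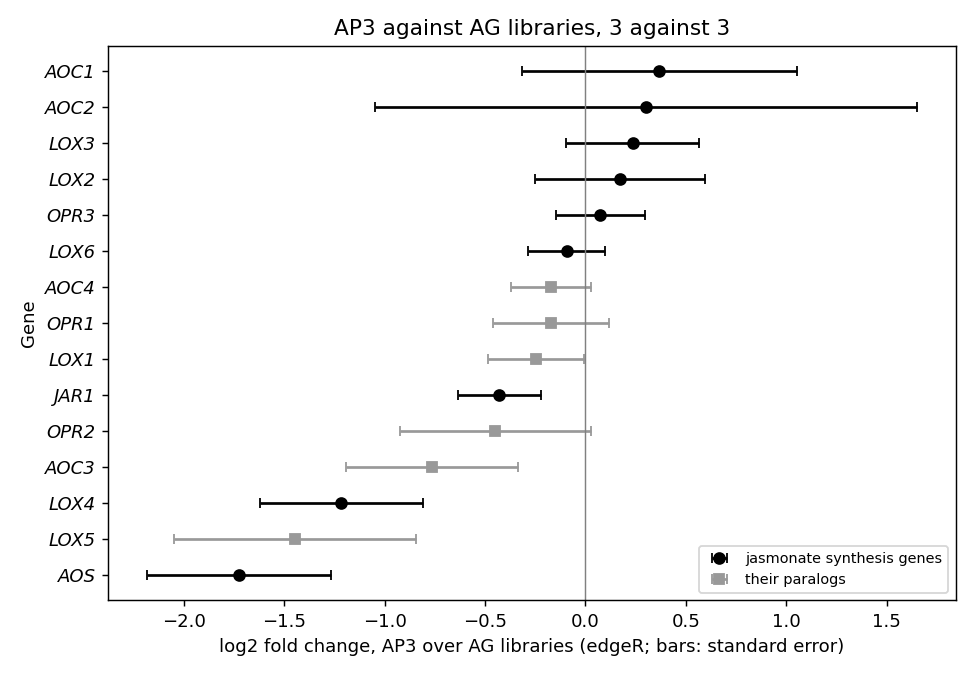
Log2 fold change (AP3 over AG libraries, edgeR, 3 against 3) on the horizontal axis for the 9 jasmonate synthesis genes that could be tested (black) and 6 paralogs (grey), with bars of 1 standard error. AOS lies farthest to the left at -1.72, LOX5 and LOX4 follow, and the bars of AOC1, AOC2, LOX2, LOX3, LOX6 and OPR3 cross 0.

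The genes also differed in level. Divided by gene length, OPR3 had the highest level, with a median of 27.7 CPM per kb over the 6 libraries (23.1 to 39.3), followed by LOX2 at 13.1 (6.4 to 20.9), LOX6 at 8.11 (6.03 to 8.67), JAR1 at 6.38 (4.43 to 8.26) and AOS at 3.79 (2.16 to 15.2). LOX3 at 1.45 CPM per kb (0.993 to 2.03), LOX4 at 1.38 (0.573 to 2.96), AOC1 at 0.713 (0.274 to 1.85), AOC2 at 0.522 (0 to 3.22) and DAD1 at 0.00659 (0 to 0.282) came last. Neighbours in this order were separated beyond the spread of the libraries only between OPR3 and LOX2 and between AOS and LOX3. LOX3 exceeded LOX4 in 3 of the 6 libraries, and AOC1 exceeded AOC2 in 3 of 6. Reads were counted over whole genes, introns included, and exons make up from 52.3% of the gene (OPR3) to its whole length (AOS and DAD1).

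**Figure D2:**
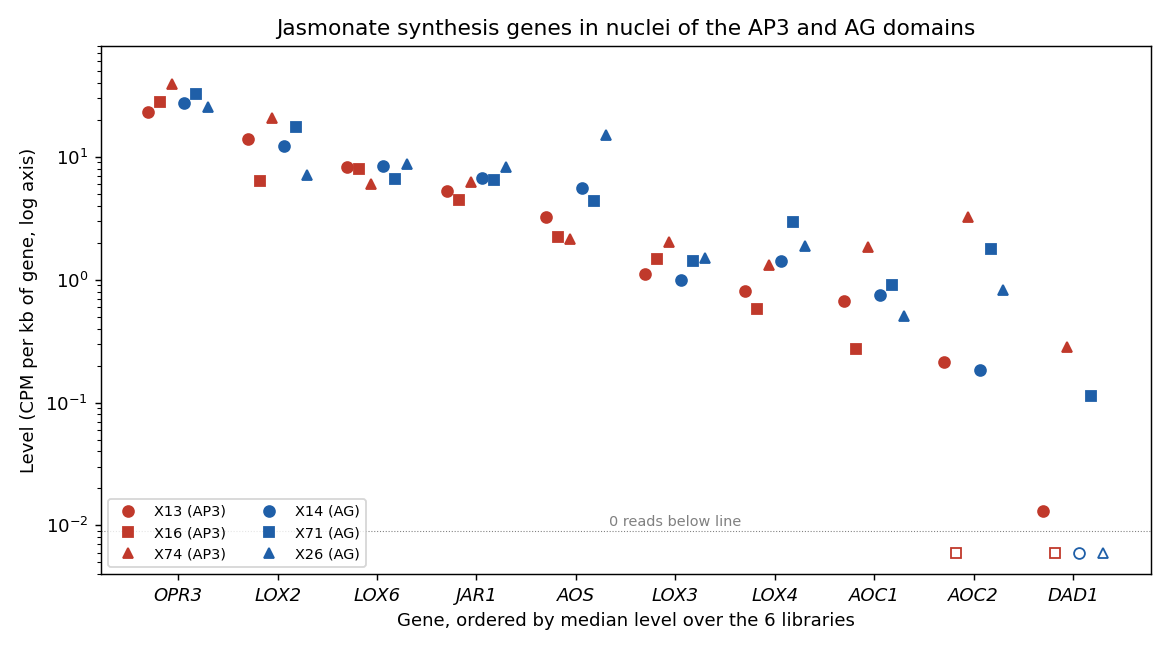
Level of each jasmonate synthesis gene in each library (vertical axis, CPM per kb of gene, log axis), with red symbols for libraries labelled AP3, blue for AG, and open symbols below the dotted line for 0 reads. OPR3 lies highest and DAD1 lowest, and AOC2 and DAD1 spread most between libraries.

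The lipase gene DAD1 (AT2G44810; chr2:18478374-18480457, plus strand, 1 exon), whose product frees the fatty acid in stamen filaments, was nearly absent at this stage. It had 1, 0 and 22 reads in the libraries labelled AP3 and 0, 8 and 0 in those labelled AG. Only X74 and X71 held more than 3 reads, the number that a count of 0 still allows, which corresponds to 0.0802 to 0.111 CPM depending on the library. DAD1 therefore did not pass the filter on reads. In the alternative without that filter its difference did not pass the test either (adjusted p = 0.727, edgeR), so none was detectable at this depth. Its close relative DGL, a plastid lipase gene, had 5 reads over all 6 libraries.

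Of the 4 genes for 13-lipoxygenases, which add oxygen to linolenic acid, LOX2 and LOX6 made up most of the signal, and none of the 4 passed the edgeR test between the domains. LOX2 (AT3G45140; chr3:16525245-16529352, plus strand, 7 exons), the leaf enzyme best known from wounding, was at 57.6, 26.3 and 85.8 CPM in the libraries labelled AP3 and at 50.1, 71.3 and 29.3 in those labelled AG. The groups overlapped fully, with X16 and X26 low and X74 and X71 high. The means were 56.6 ± 29.7 and 50.3 ± 21.0 CPM (SD, n = 3 each), and the log2 fold change was 0.17 (SE 0.42; adjusted p = 0.896, edgeR). It turned to -0.26 without X74 and to -0.10 without X26. Of the 10 mesophyll markers, 0 were called by edgeR, against 7.76% of all genes. At an unadjusted p under 0.05 there was 1, against 19.7%, and DESeq2 called 1, against 12.2%. The markers summed to their lowest values in the same 2 libraries where LOX2 was lowest, 2623 CPM in X16 and 2611 in X26, against 3469 to 4068 in the other 4. Most of this sum came from RBCS1A and LHCB1.3. It was highest in X13, whereas LOX2 was highest in X74, and the markers CA1 and RBCS1B were lowest in X13. In its single-nucleus data the study lists LOX2 among the markers of a cluster that it assigns to cells becoming mesophyll. The part of mesophyll nuclei in the LOX2 values was not tested.

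LOX4 (AT1G72520; chr1:27308513-27312756, plus strand, 6 exons), one of the pair of lipoxygenases required together with LOX3 for male fertility, was at 3.43, 2.43 and 5.59 CPM in the libraries labelled AP3. In those labelled AG it was at 6.09, 12.6 and 7.99 CPM. Every AG value was above every AP3 value, although X14 exceeded X74 only narrowly. The means were 3.82 ± 1.61 and 8.88 ± 3.33 CPM (SD, n = 3 each), a log2 fold change of -1.22 (SE 0.41) that did not pass the test with edgeR (adjusted p = 0.119). DESeq2 called LOX4 (adjusted p = 0.0313), as did edgeR with a term for X74 and X71 (adjusted p = 0.0362). These were the only calls in 17 alternatives (adjusted p 0.0313 to 0.384).

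LOX3 (AT1G17420; chr1:5977323-5981521, plus strand, 8 exons), its partner in stamens, was at 4.72, 6.18 and 8.51 CPM against 4.17, 5.98 and 6.32. These ranges overlapped, and the log2 fold change was 0.24 (SE 0.33; adjusted p = 0.786, edgeR). LOX6 (AT1G67560; chr1:25319804-25324581, plus strand, 9 exons), known for the early jasmonate rise after wounding and for its activity in vascular tissue, was at 39.3, 38.1 and 28.8 CPM against 40.4, 31.6 and 41.4. It was the steadiest of the 10 genes, its highest library being 1.44 times its lowest, with X74 and X71 at the low end in their groups. Its log2 fold change was -0.09 (SE 0.19; adjusted p = 0.869, edgeR).

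The make-up of the 13-lipoxygenase signal within a library does not depend on how libraries are scaled. Per kb of gene, LOX2 supplied 58.0%, 39.0% and 69.0% of it in the libraries labelled AP3 and 52.9%, 61.2% and 37.2% in those labelled AG. The means of 55.3% ± 15.2 and 50.4% ± 12.2 (SD, n = 3 each) did not separate, with a difference of 4.89 percentage points. A 2-sided exact permutation test over libraries gave p = 0.7, and 0.7 after adjustment over the 2 ratios planned. With 3 against 3 libraries this test cannot go below 0.1. LOX6 supplied 19.9% to 48.6% and was lowest where LOX2 was highest, in X74 and X71, as shares of 1 total must trade off. LOX4 supplied 3.34%, 3.49% and 4.35% in the libraries labelled AP3 and 6.21%, 10.4% and 9.81% in those labelled AG. These shares did not overlap, but the exact permutation p was 0.1, the lowest that the test can give. The LOX4 share was not among the 2 ratios planned. Set against its near relative alone, a ratio chosen after the values were seen, LOX4 made up 41.8%, 28.0% and 39.4% of the LOX3 and LOX4 signal against 59.1%, 67.5% and 55.6%. Here too the exact permutation p was 0.1. In every library labelled AG LOX4 was thus the larger of the pair, and in every library labelled AP3 LOX3 was. The genes are 79.03% identical over their aligned length with no identical stretch beyond 24 bases, so few reads could have matched both.

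**Figure D3:**
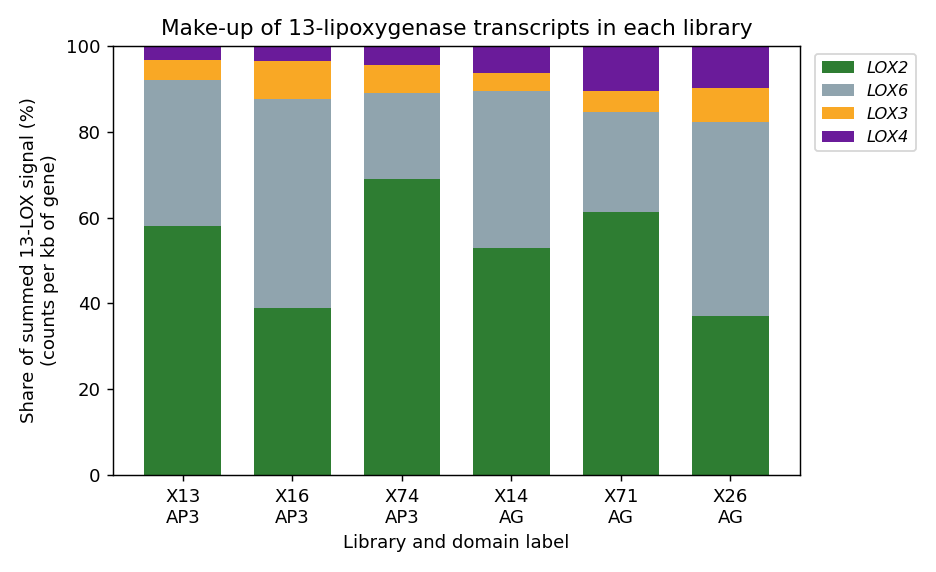
Share of each gene in the summed 13-lipoxygenase signal (vertical axis, percent, from counts per kb of gene) in each of the 6 libraries, with the domain label under each library code. The LOX4 segment is 3.34% to 4.35% in the libraries labelled AP3 and 6.21% to 10.4% in those labelled AG, while LOX2 varies from 37.2% to 69.0% across both.

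AOS (AT5G42650; chr5:17097564-17099595, minus strand, 1 exon), the only allene oxide synthase gene of Arabidopsis and so a step that every jasmonate molecule passes, had the largest difference between the domains. It was at 6.53, 4.54 and 4.39 CPM in the libraries labelled AP3. In those labelled AG it was at 11.4, 8.86 and 30.8 CPM. The groups did not overlap, and X26 stood far above the other libraries. The means were 5.15 ± 1.2 and 17.0 ± 12 CPM (SD, n = 3 each), and the fitted level was 3.31-fold lower in the libraries labelled AP3 (log2 fold change -1.72, SE 0.46), with an adjusted p of 0.0546 in edgeR. AOS was called in 7 of 17 alternatives (adjusted p 0.00112 to 0.176), among them DESeq2 (0.00166) and edgeR with a term for X74 and X71 (0.0435). Without X26 the log2 fold change was -0.98 (adjusted p = 0.129, edgeR), and without X71 it was -2.04 (adjusted p = 0.0339, edgeR).

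Vascular markers moved in the direction of AOS and LOX4. All 11 phloem markers that could be tested, of 13, were called lower in the libraries labelled AP3 by edgeR, against 6.4% of all genes. The list summed to 21.7 to 25.6 CPM there against 141 to 253.3 (median log2 fold change -3.16). Xylem markers were called lower for 8 of 11 (39.9 to 46.9 CPM summed, against 148.2 to 222), and procambium markers for 4 of 6 (170.8 to 225.3 against 449.9 to 529.6). Single phloem genes differed in which library labelled AG was highest. SUC2, the sucrose carrier of companion cells, was at 1.56, 2.1 and 3.45 CPM against 23.7, 16.4 and 66.4, and the companion cell proton pump gene AHA3 at 9.72, 7.33 and 5.75 against 19.9, 22.4 and 75.5. X26 was the highest library labelled AG for AOS, SUC2 and AHA3, as it was for 4 of the 13 phloem markers, whereas X14 was highest for 7. Of the 6 procambium markers, X26 was highest for 5 and X71 for 1. The phloem regulator APL was nearly equal in the AG group at 34.9, 32.6 and 33.4 CPM. For LOX4 the library X71 was highest, as it was for 3 of the 11 xylem markers, among them ACL5 (7.85, 9.93 and 10.6 CPM against 112, 160 and 75.4), while for 7 of the 11 X71 was the lowest library labelled AG. These 4 markers were picked after their values were seen, and the part of vascular nuclei in the AOS and LOX4 differences was not tested.

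**Figure D4:**
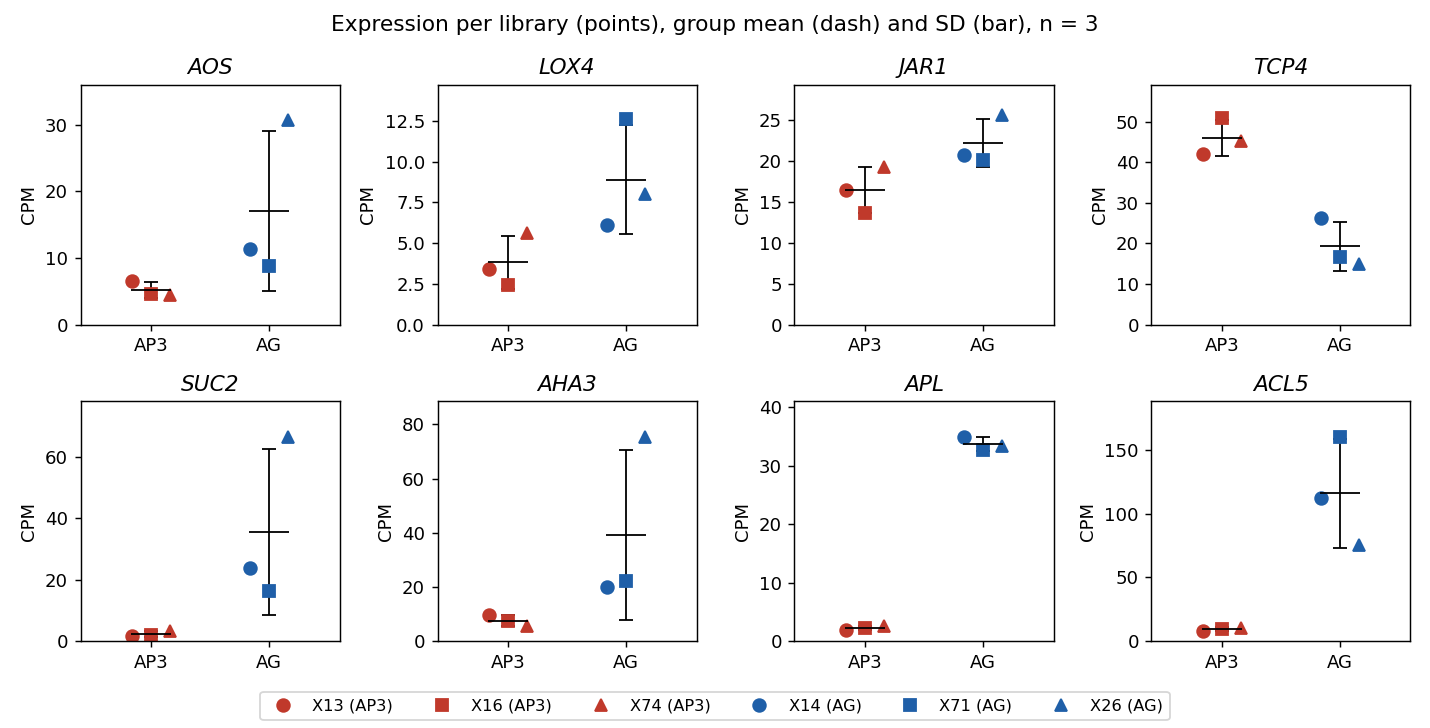
CPM in each library (symbols), group mean (dash) and SD (bar, n = 3) for AOS, LOX4, JAR1, TCP4 and the vascular genes SUC2, AHA3, APL and ACL5, with libraries labelled AP3 in red and AG in blue. AOS, SUC2 and AHA3 share a high value in X26 (30.8, 66.4 and 75.5 CPM), and of the 8 genes only TCP4 is higher in the libraries labelled AP3.

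The 2 cyclase genes AOC1 and AOC2, which lie in tandem on chromosome 3 with AOC3 behind them, were low, varied widely between libraries of 1 domain and did not separate the domains. AOC1 (AT3G25760; chr3:9403779-9405338, plus strand, 2 exons) had 38, 13 and 108 reads in the libraries labelled AP3 and 32, 48 and 25 in those labelled AG. Its log2 fold change was 0.37 (SE 0.68; adjusted p = 0.852, edgeR). AOC2 (AT3G25770; chr3:9406669-9408071, plus strand, 2 exons) had 11, 0 and 169 reads against 7, 84 and 37. X74 and X71 thus held most of the AOC2 reads, and X16 held none, which allows up to 0.0986 CPM there. The fitted log2 fold change of AOC2 was 0.30 (SE 1.35; adjusted p = 0.946, edgeR) and turned to -3.03 without X74 (adjusted p = 0.217, edgeR) and to -0.17 without X14, so its sign rested on single libraries.

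The balance of the pair did not separate the domains either. The log2 ratio of AOC2 to AOC1, per kb and with 0.5 added to each count, was -1.59, -4.60 and 0.80 in the libraries labelled AP3 and -1.96, 0.95 and 0.71 in those labelled AG. The mean difference of -1.70 had a 2-sided exact permutation p of 0.6, or 0.7 after adjustment over the 2 ratios. It moved from -0.30 without X16, the library with 0 AOC2 reads, to -3.0 without X74, and was -1.39 with 1 added to each count, a choice made after seeing the data. The genes are 85.61% identical over 1244 aligned bases, with a longest identical stretch of 47 bases. With AOC3 the longest identical stretch is 73 bases for AOC1 and 50 for AOC2. Only uniquely mapped reads were counted, so reads from such stretches may be missing from the counts of AOC1, AOC2 and AOC3.

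The other cyclase paralogs carried more signal. AOC4 had a median of 39.1 CPM per kb (31.9 to 49.6) and AOC3 of 4.73 (2.74 to 9.07), so each exceeded AOC1 and AOC2 at the median. AOC3 was at 5.63, 5.29 and 11.7 CPM against 6.57, 17.5 and 14.3, with a log2 fold change of -0.76 (SE 0.43; adjusted p = 0.389, edgeR). AOC4 was at 48.4, 55.5 and 62.4 CPM against 74.7, 64.5 and 48.0, with a log2 fold change of -0.17 (SE 0.20; adjusted p = 0.735, edgeR). Neither separated the domains.

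OPR3 (AT2G06050; chr2:2359114-2362375, minus strand, 5 exons), the peroxisomal reductase whose loss leaves anthers closed, was at 75.2, 90.8 and 128 CPM in the libraries labelled AP3 and at 90.1, 106 and 83.0 in those labelled AG. The groups overlapped, and X74 and X71 were again the highest of their groups. The means were 98.1 ± 27.3 and 93.2 ± 12 CPM (SD, n = 3 each), with a log2 fold change of 0.07 (SE 0.22; adjusted p = 0.914, edgeR). Its relatives OPR1 and OPR2, whose reductases are thought to act outside the main route, had log2 fold changes of -0.17 (adjusted p = 0.831) and -0.45 (adjusted p = 0.702, both edgeR).

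JAR1 (AT2G46370; chr2:19033586-19036683, plus strand, 5 exons), the enzyme that makes the active isoleucine conjugate, was at 16.5, 13.7 and 19.3 CPM in the libraries labelled AP3 and at 20.8, 20.2 and 25.6 in those labelled AG. The groups did not overlap, although X74 and X71 were close. The means were 16.5 ± 2.80 and 22.2 ± 2.94 CPM (SD, n = 3 each). The log2 fold change of -0.43 (SE 0.20) did not pass the test (adjusted p = 0.297, edgeR), nor did it in any of 17 alternatives (0.218 to 0.605).

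Of the paralogs outside the pathway, LOX5, a 9-lipoxygenase gene, had the lowest fold change. It was at 0.384, 1.15 and 2.03 CPM against 4.24, 2.13 and 3.40, groups that did not overlap (log2 fold change -1.45, SE 0.60; adjusted p = 0.221, edgeR). LOX1, the other 9-lipoxygenase gene, had a log2 fold change of -0.25 (adjusted p = 0.663, edgeR). Of the 7 paralogs, 6 were tested and 0 were called by edgeR or DESeq2, against 7.76% and 12.2% of all genes. Only LOX5 had an unadjusted p under 0.05, against 19.7% of all genes.

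In the rest of the pathway edgeR called no gene between the domains either, against 7.76% of all genes tested. In lists of 4 to 15 tested genes, 0 calls do not tell a list apart from that share. Of 15 further synthesis genes, which cover the fatty acid desaturases, export from the plastid, import into the peroxisome and the shortening of the side chain, all 15 were tested and 0 were called (median log2 fold change 0.12). Of 10 catabolic genes, whose products act on jasmonates or on the conjugate, 6 were tested and 0 called (median -0.23). COI1 and the JAZ repressors with their adaptor NINJA gave 0 called of 14 tested (median -0.16). COI1 itself was at 27.5, 28.6 and 30.7 CPM against 27.7, 34.4 and 28.2 (adjusted p = 0.914, edgeR). Of 5 genes that jasmonate induces, 4 were tested and 0 called (median -0.33). At an unadjusted p under 0.05 these 4 lists held 3, 0, 2 and 1 genes in that order, against 19.7% of all genes. DESeq2, which called 12.2% of all genes, called 1 gene each of the last 2 lists. These were JAZ8 as lower and CORI3 as higher in the libraries labelled AP3.

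Of the transcription factors of the jasmonate response, none of the 6 tested, of 10, was called by edgeR or DESeq2, against 7.76% and 12.2% of all genes. An unadjusted p under 0.05 was reached by 1, against 19.7% of all genes. MYC2, the best known of them, was listed with 1 read over all 6 libraries and MYB24, a stamen factor downstream of jasmonate, with 0. Other annotated genes on the opposite strand cover 98.5% of MYC2 and the whole of MYB24, and counting ignored strand and left out reads that overlap more than 1 gene, so these counts do not measure either gene. MYB21, which acts with MYB24 and is covered for 25.6% of its length, had 4 reads.

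In the main edgeR fit of all 6 libraries, 2 of 7 regulators of the synthesis genes were called, both higher in the libraries labelled AP3. Of all genes 7.76% were called, 1.36% as higher. These 2 were the only calls among the 58 genes tested in the 7 jasmonate lists other than the synthesis genes. With no filter beyond 1 read edgeR also called 1 induced gene. With a term for X74 and X71 it called 1 induced gene and 1 gene of the JAZ list, both as higher in the libraries labelled AP3. TCP4, the factor known to activate LOX2 in leaves, was at 42.1, 50.8 and 45.1 CPM in the libraries labelled AP3 and at 26.2, 16.6 and 15.0 in those labelled AG. The groups lay well apart, with means of 46.0 ± 4.43 and 19.3 ± 6.05 CPM (SD, n = 3 each) and a log2 fold change of 1.26 (SE 0.23; adjusted p = 0.0126, edgeR). TCP4 was called in 13 of 17 alternatives. TCP2, another miR319-targeted TCP gene, was at 66.7, 84.8 and 101 CPM against 56.2, 47.2 and 43.1 and was also called (log2 fold change 0.78, SE 0.20; adjusted p = 0.0441, edgeR), as it was in 7 of 17 alternatives. In the 4 libraries of the authors' table edgeR called neither (TCP4 adjusted p = 0.0723 and TCP2 0.267). With 1 library left out, TCP4 was not called without X16 (adjusted p = 0.055, edgeR) or without X71, and TCP2 was called only without X13. The other 3 TCP genes of the list did not pass, of which TCP3 is covered for 78.7% of its length by another annotated gene. ARF6 was at 172, 145 and 151 CPM against 222, 264 and 399, all AG values being higher, with a log2 fold change of -0.92 (SE 0.24) that fell short of the threshold (adjusted p = 0.0511, edgeR; called in 7 of 17 alternatives). ARF8 had a log2 fold change of -0.26 (adjusted p = 0.576, edgeR). Of the 4 genes with a TCP site upstream, LOX2, AOC1 and JAR1 were tested and were not called by edgeR or DESeq2.

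A second pattern ran across the domains. In X74 the genes LOX2, LOX4, AOC1, AOC2 and OPR3 were above both other libraries labelled AP3, and in X71 the same 5 were above both others labelled AG, which was so for 16.9% of all genes tested. The pattern was noticed in the values, so it is given here as a description with no test. AOC2 in X74 was 29.9 times the mean of X13 and X16, and in X71 it was 3.50 times the mean of X14 and X26. LOX2 was 2.04 and 1.80 times as high, LOX4 1.91 and 1.78 times, and OPR3 1.55 and 1.23 times. LOX6 went the other way, at 0.744 and 0.772 times, as did AOS at 0.793 and 0.419 times. The medians over all genes were 0.983 and 0.988 times.

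Several groups of jasmonate genes, but not all, had the same order of libraries. X74 and X71 were the highest of their groups for 10 of 14 genes of the list of COI1, NINJA and the JAZ repressors, for 4 of 6 catabolic genes and for 3 of 4 induced genes, but for 1 of 6 transcription factors, 1 of 6 paralogs, 2 of the 15 further synthesis genes and 0 of the 7 regulators. Medians over the list with the JAZ genes were 2.23 times in X74 and 1.56 times in X71. Among the genes named for this pattern after their values were seen, JAZ1, a repressor that jasmonate itself induces, was at 9.58, 9.40 and 41.4 CPM against 14, 41.3 and 18.2. JAZ9 was at 44.2, 34.2 and 180 CPM against 47.5, 129 and 65.3. VSP2, a vegetative storage protein gene widely used as a jasmonate marker, was at 109, 131 and 686 CPM against 346, 580 and 283. X74 and X71 do not enter the 4 libraries of the authors' table. There edgeR called 3 genes of the other jasmonate lists, which held 58 tested genes in the main fit. All 3 were called as lower in the libraries labelled AP3. They were VSP2 (log2 fold change -1.39, adjusted p = 0.0254), JAZ5 (-2.16, 0.0304) and JAZ6 (-1.50, 0.0299). In all 6 libraries their adjusted p were 0.829, 0.605 and 0.531 (edgeR). Of all genes tested in the 4 libraries, 4.85% were called as lower. The 3 calls do not tell the lists apart from that share. CORI3 and JAZ10, picked after their values were seen, lay the other way there without a call. CORI3 was at 133 and 67.8 CPM in X13 and X16 against 57.2 and 23.3 in X14 and X26. JAZ10 was at 33.4 and 41.1 CPM against 22.1 and 24.4. With a term for X74 and X71, edgeR called 1 induced gene and 1 gene of the JAZ list, both as higher in the libraries labelled AP3. In the 4 libraries alone, 0 synthesis genes were called by edgeR, against 5.24% of all genes tested there, and AOS had an adjusted p of 0.0648. What set X74 and X71 apart was not tested, and neither the labels nor the methods give the libraries a date or batch.

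**Figure D5:**
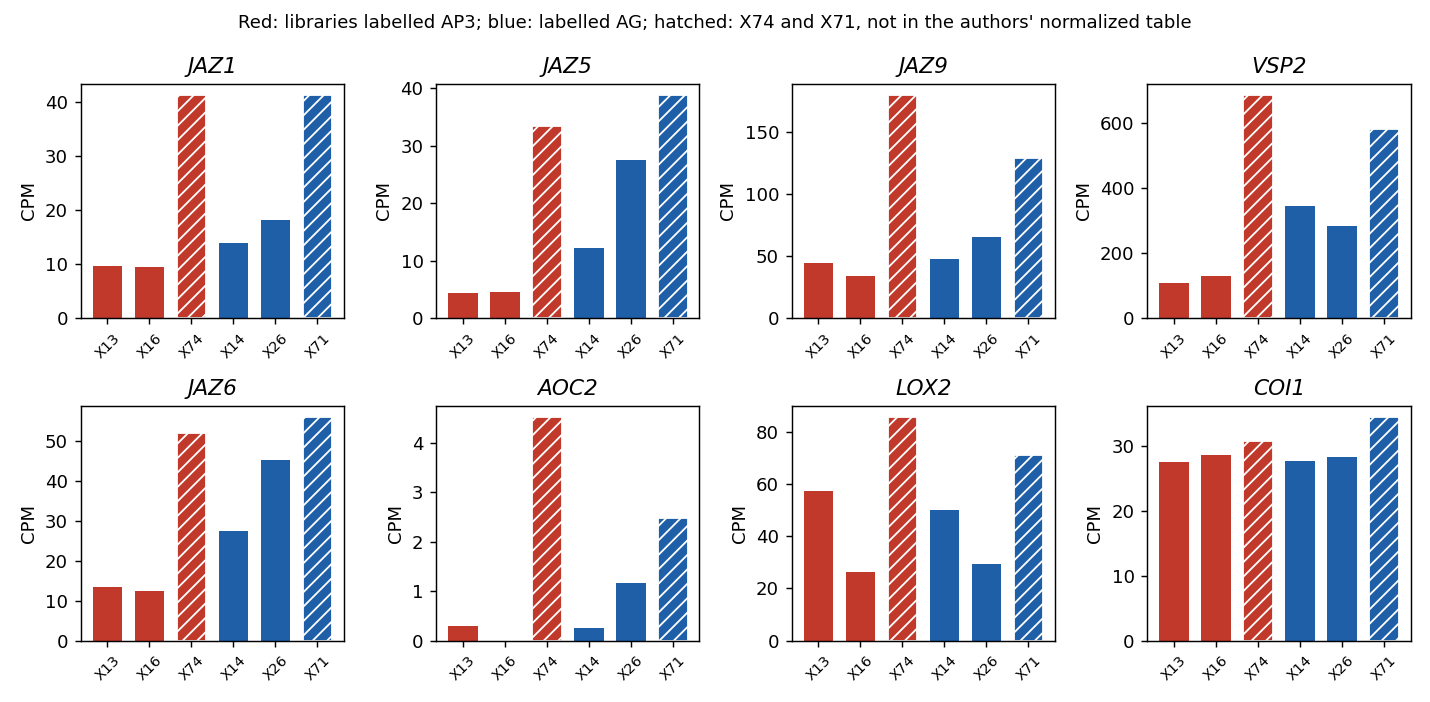
CPM per library for the jasmonate response genes JAZ1, JAZ5, JAZ9, VSP2 and JAZ6, for AOC2 and LOX2, and for the receptor gene COI1, with libraries labelled AP3 in red, AG in blue, and X74 and X71 hatched. The hatched bars are the highest of their group in all 8 panels, from AOC2 (4.52 and 2.49 CPM) to COI1, where the 6 libraries lie between 27.5 and 34.4 CPM. Only genes with this order are shown, and LOX6 and AOS, which went the other way, are not.

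Genes whose levels ran most like AOS and LOX4, the 2 synthesis genes with the largest absolute fold changes, were sought among 14369 genes whose log2 CPM averaged 3 or more. Likeness was Pearson's r of log2 CPM over the 6 libraries, a description over few points that share the domain difference. For AOS they were CAM5, a calmodulin gene (r = 0.997), the cyclic nucleotide gated channel gene CNGC11 (0.995) and AT2G25790 (0.994). CNGC11 was at 39.7, 27.2 and 24.8 CPM against 53.3, 47.6 and 126, with the same high value in X26. For LOX4 they were AFP2 (0.993), LHCB2.3, which encodes a light-harvesting protein (0.993), and DJ1A (0.991). At an r above 0.95 there were 79 such genes for AOS and 38 for LOX4.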

How the data were processed

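RNA of sorted nuclei was measured in 6 libraries, 3 per domain. Reads were trimmed (Trimmomatic) and aligned to TAIR10 by the authors with STAR 2.7.0b, and unique alignments were kept. They deposited whole-number counts per gene, which per the file headers were made with featureCounts 1.6.0 over the whole gene without regard to strand. They also deposited DESeq2 1.24.0 variance stabilized values on a log2-like scale for 4 libraries (X13, X16, X14 and X26), used only as an alternative. Groups follow the sample titles, and no value column was left unmapped. The members and gene lists were chosen with earlier results of these data known.

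Organelle genes were removed, and a gene was kept if over 10 reads were counted in 2 or more libraries. All 20013 genes kept were fitted with edgeR 4.0.16 (R 4.3.3; TMM, quasi-likelihood F test, Benjamini-Hochberg over all genes). CPM uses TMM-scaled totals, log2 CPM has a prior count of 2, and the standard error (SE) was back-calculated from the F statistic and is no estimate of the model itself. DESeq2 1.42.0, limma 3.58.1, other scalings and filters, the 4 libraries alone, a term for X74 and X71, and leaving out each library were alternatives. The code was tested on simulated counts. Libraries of 1 domain differed beyond sampling noise, with chi-square per degree of freedom from 41.6 to 190.3.

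Named are all 10 genes and their paralogs, called genes of the other jasmonate lists, COI1, MYC2, MYB21, MYB24, ARF6, ARF8 and TCP4, AP3 and AG, and the 3 genes most like each of the 2 synthesis genes of largest absolute log2 fold change. Other names were chosen after their values were seen. The authors' single-nucleus data were not used here.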

Additional observations from a re-analysis of the deposited data

How the results depend on the processing

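The number of all genes called (1554) was 2435 with DESeq2, 1022 with the 4 libraries of the authors' table, 917 with limma on the authors' values, and 737 (without X16) to 1480 (without X74) when a library was left out, with 953 without X13 and 981 without X71. Over these alternatives 3.69% to 12.2% of the genes tested were called. The number of synthesis genes called, 0 of 9, rose to 2 with DESeq2 and with a term for X74 and X71 (AOS and LOX4 in both), and to 1 (AOS) with upper-quartile factors, with library totals only, with no filter beyond 1 read, and with DESeq2 on the 4 libraries, the last chosen after seeing the data. It was 0 to 1 when a library was left out, AOS being called without X71. The main fit called 2 of the 58 genes tested in the other jasmonate lists, both as higher in the libraries labelled AP3. The direction changed with the setting. DESeq2 called 5 (3 higher, 2 lower), no filter gave 4 (3 and 1), and the term for X74 and X71 gave 4 (4 and 0). The 4 libraries gave 3 with edgeR (0 and 3), 4 with limma (0 and 4) and 8 with DESeq2 (2 and 6). Leaving out a library gave 0 to 5 calls. There were 0 without X16 and without X71, 1 without X26 (higher) and 5 without X74 (1 higher, 4 lower).

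Signs turned for 6 synthesis genes, each within 1 SE of 0, and for the LOX2 share. With the 4 libraries the log2 fold change was -0.41 for AOC1, -2.16 for AOC2 and -0.064 for OPR3, with DESeq2 on them -0.41, -2.24 and -0.058, and with limma -0.11 for AOC1 and -0.069 for OPR3. The term for X74 and X71 gave -0.97 for AOC2. Leaving out a library gave -0.26 (X74) to 0.51 for LOX2, -0.014 (X74) to 0.43 for LOX3, -0.21 to 0.035 (X74) for LOX6, -0.61 (X74) to 0.81 for AOC1, -3.03 (X74) to 1.17 for AOC2 and -0.17 (X74) to 0.25 for OPR3. Without X26 it was -0.10 for LOX2 and -0.0039 for OPR3, and without X14 it was -0.17 for AOC2. The difference in the LOX2 share ranged from -1.95 to 13.1 percentage points, below 0 without X74 (-1.95) and without X26 (-1.73). The cause of these changes was not tested. AOS, LOX4 and JAR1 were lower in the libraries labelled AP3 under all 17 alternatives. AOC2 has no value in the authors' table and was not fitted with limma. No paired analysis was possible because the labels give the libraries no replicate numbers. DAD1, AOC1 and AOC2 rest on 31, 264 and 308 reads over all libraries.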

Other observations

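Of 7 epidermal genes, 2 were called higher in the libraries labelled AP3 by edgeR, PDF1 and ATML1, against 1.36% of all genes. The list summed to 4296 to 5521 CPM there against 1581 to 2889, and without PDF1 to 1399 to 2054 against 998.1 to 1398, while KCS6 had a log2 fold change of -0.49 (adjusted p = 0.109, edgeR). MYC3, a relative of MYC2, was at 60.1, 83.6 and 67.7 CPM in the libraries labelled AP3 and at 98.5, 92.1 and 96.8 in those labelled AG (log2 fold change -0.44; adjusted p = 0.187, edgeR). JAZ10, which encodes a repressor induced by jasmonate, was at 33.4, 41.1 and 83.7 CPM against 22.1, 36.5 and 24.4 (log2 fold change 0.93; adjusted p = 0.168, edgeR). JAZ8 had the largest negative value of the tested JAZ genes, a log2 fold change of -2.44 (adjusted p = 0.114, edgeR), at 0.0823 to 0.401 CPM against 0.627 to 2.64, and DESeq2 called it. MYC3, JAZ10 and JAZ8 were named after their values were seen.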
